A study of Mus musculus with 30 samples.

Results

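Among 16 wild-type male C57BL/6J mice that lived for 64 weeks under chronic jet lag (the ADV group, an 8-hour advance of the light-dark cycle every 4 days), the 4 with the highest Fos in the gastrocnemius muscle were compared with the other 12. The 4 were chosen by their deposited Fos FPKM (fragments scaled to exon length and library size), so Fos itself was left out of every comparison and the differences between the 4 and the 12 are given as a description, with no p-value. The 14 mice of the LD group, kept under a fixed 12-hour light and 12-hour dark cycle for the same time, played no part in the choice and are the only mice in which relations with Fos were tested. All 30 mice carried the wild-type genotype, lived singly in cages with a running wheel, and gave 1 poly(A)-enriched RNA library each. The light cycle was the only treatment, and neither the hour of sampling nor the wheel running of a given mouse was used here.

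Fos, a subunit of the AP-1 transcription factor, is the textbook immediate early gene: its transcript is scarce in resting cells, appears soon after a stimulus such as contraction, stretch, growth factors or cell stress, and decays quickly. Signals reach such genes through serum response factor at CArG boxes, through CREB at cAMP response elements and, in the heat shock branch, through Hsf1 at heat shock elements. In skeletal muscle, exercise is known to raise immediate early transcripts.

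Fos stood at 18.4, 30.98, 41.5 and 11.7 FPKM in ADV mice 21, 25, 29 and 33, against 1.61 to 5.86 FPKM (median 3.18) in the other 12 ADV mice and 0.66 to 4.57 FPKM (median 1.91) in the LD mice. ADV mouse 33, the last one inside the limit, had 11.7 FPKM, and ADV mouse 26, the first one outside it, had 5.86 FPKM. The 4 values rest on 599.5 to 1914.5 reads of Fos. The 4 mice are those ADV mice whose label numbers leave a remainder of 1 after division by 4, and the 12 others hold all the other remainders. The labels do not say what the number marks, so a high Fos level and whatever goes with that number cannot be told apart in the ADV mice. The 3 LD mice with the same remainder (21, 29 and 33) had 2.15, 1.93 and 1.90 FPKM of Fos, inside the range of the LD group.

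**Figure D1:**
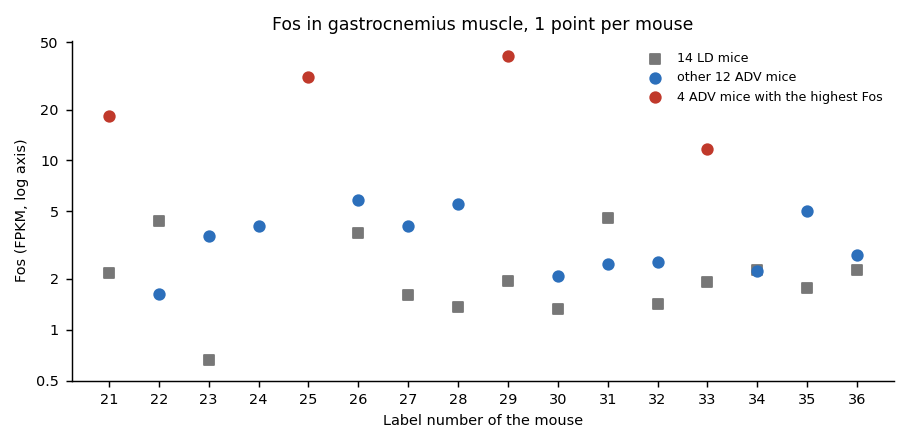
Fos level (FPKM, log axis) of each mouse against its label number. Circles are ADV mice, red for the 4 with the highest Fos (11.7 to 41.5 FPKM) and blue for the other 12 (1.61 to 5.86 FPKM), and grey squares are LD mice. The red circles lie at numbers 21, 25, 29 and 33.

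The libraries of the 4 mice held 19811801 to 24209768 read pairs on exons, against 18875468 to 25699604 in the other 12 ADV mice and 19015401 to 28512674 in the LD mice. Exonic shares were 91.1 to 92.0% against 91.2 to 92.7% in the 12, and mitochondrial transcripts took 8.28 to 11.6% of the counts against 6.80 to 13.6%. ADV mouse 25 had a positive trend of expression with GC content (0.250 on the log2 scale per 10 percentage points), which was exceeded only by ADV mouse 34 (0.310), one of the 12. With that trend removed, 13 genes in place of 10 met the criterion given below, and the first 10 were among them. Abundant fast-fiber transcripts such as Myh4, the myosin of the fastest fibers (8988 to 11224 FPKM in the 4), marked the tissue as a fast muscle, and 4 of 5 skin and hair genes were at 0 in every ADV mouse.

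The promoters of 4 genes are shown as examples that hold a motif of one of the factors named above. Of 20 genes searched, 7 held at least 1 of the 4 motifs and 13 held none. The share of all promoters with at least 1 of the 4 was not counted, and only the shares of single motifs are given below. Egr1 was not among the 20, and no motifs are given for its promoter. The 13 include Otud1, Atf3, Nr4a1, Csrnp1, Irs2 and the heat shock gene Dnajb1, which says only that these letters are not in the window read. Each stretch is given 5′ to 3′ on the strand of the gene, from GRCm39 with the start sites of GENCODE vM39, and covers positions -330 to -31 before the start. Capitals mark the motif found by the search: in Fos a CArG box at -303 to -294, in Btg2 the cAMP response element TGACGTCA at -201 to -194, and in the near-identical heat shock genes Hspa1a and Hspa1b the GAANNTTC core of a heat shock element at -104 to -97.
Fos, chr12:85520328-85520627, plus strand: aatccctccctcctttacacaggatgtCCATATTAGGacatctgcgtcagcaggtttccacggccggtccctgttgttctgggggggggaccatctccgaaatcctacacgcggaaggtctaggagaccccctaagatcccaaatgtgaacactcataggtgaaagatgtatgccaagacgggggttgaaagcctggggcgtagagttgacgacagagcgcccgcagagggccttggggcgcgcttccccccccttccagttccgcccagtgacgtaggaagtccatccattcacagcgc
Btg2, chr1:134006889-134007188, minus strand: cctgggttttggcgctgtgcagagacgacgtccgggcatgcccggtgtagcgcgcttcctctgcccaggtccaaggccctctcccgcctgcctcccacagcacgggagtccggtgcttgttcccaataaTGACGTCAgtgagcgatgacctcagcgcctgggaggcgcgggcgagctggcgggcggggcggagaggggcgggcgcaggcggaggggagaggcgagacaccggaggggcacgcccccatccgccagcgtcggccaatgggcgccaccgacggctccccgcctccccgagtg
Hspa1a, chr17:35191163-35191462, minus strand: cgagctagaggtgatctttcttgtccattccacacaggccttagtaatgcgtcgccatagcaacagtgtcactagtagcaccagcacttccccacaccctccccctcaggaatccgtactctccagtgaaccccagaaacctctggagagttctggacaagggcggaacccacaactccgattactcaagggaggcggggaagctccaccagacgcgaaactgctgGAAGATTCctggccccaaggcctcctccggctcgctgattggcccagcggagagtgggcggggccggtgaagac
Hspa1b, chr17:35178245-35178544, minus strand: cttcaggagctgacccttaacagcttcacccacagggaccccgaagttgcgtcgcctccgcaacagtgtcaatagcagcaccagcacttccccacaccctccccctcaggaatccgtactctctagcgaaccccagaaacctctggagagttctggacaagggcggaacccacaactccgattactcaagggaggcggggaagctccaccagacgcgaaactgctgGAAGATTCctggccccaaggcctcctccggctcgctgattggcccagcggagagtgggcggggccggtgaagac
The search read both strands of the 500 bases before the start. Over the 12011 promoters that could be read, 2.53% held a CArG box, 2.34% TGACGTCA, 6.22% the AP-1 site TGACTCA and 11.3% GAANNTTC. Ier5 also held GAANNTTC at -315 to -308, Jun at -128 to -121 and Fos at -444 to -437, and Xirp1 held the AP-1 site at -203 to -197. Of the 300 bases shown for Hspa1a and Hspa1b, 259 were identical at the same position. These are promoter bases, and the transcripts of both genes were not compared. The authors removed reads of low mapping quality, and whether reads were lost from or exchanged between both genes was not tested.

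A total of 10 genes other than Fos were separated upward, and none downward. In these genes all 4 mice lay above each of the other 12, and the difference between the groups exceeded 1.5-fold. The gap between single mice could be smaller than that. They were Otud1, Egr1, Irs2, Csrnp1, Apold1, Btg2, Gm17024, Ier5, Lrrc32 and Bcl2l11, and 4 of them (Egr1, Csrnp1, Btg2 and Ier5) are on the lists of immediate early genes described below. They make up 0.0831% of the 12029 genes tested, and the lower side 0%. These percentages are printed beside the counts as the background of this comparison and carry no test, because the 4 mice were chosen by a gene of the same libraries. With overlap between the groups allowed, 90 genes (0.748%) were more than 1.5-fold higher and 70 (0.582%) more than 1.5-fold lower, and the median difference over all genes was -0.0066 on the log2 scale. Of all genes, 47.0% were higher in the 4, which is the background of the counts of higher and lower list members given below. A further 4 genes (Fzd7, Samd4b, Pcf11 and Gimap6) were higher and 3 (Zfp553, Hoxa7 and Cdan1) lower without overlap but by less than 1.5-fold, and these were named after their values were seen.

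Otud1, which encodes a deubiquitinating enzyme (chr2:19662563-19665394), had the largest difference. Its level was 43.1, 115.8, 42.2 and 61.6 FPKM in ADV mice 21, 25, 29 and 33, and 3.58 to 37.2 FPKM (median 6.15) in the other 12, a log2 difference of 2.79. Only ADV mouse 24, at 37.2 FPKM, came near the 4, and the next of the 12 was at 15.8 FPKM. In the LD mice Otud1 was at 5.84 ± 4.69 FPKM (mean ± SD, n = 14).

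Egr1, a zinc finger transcription factor and a classic immediate early gene, was at 5.01, 13.7, 12.1 and 4.03 FPKM in the 4 mice and at 0.726 to 3.75 FPKM (median 1.91) in the 12, a log2 difference of 2.21. The level was highest in ADV mice 25 and 29, the mice with the highest Fos, and lower in mice 21 and 33. The LD mice had 1.33 ± 0.33 FPKM.

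Btg2, an antiproliferative gene of the immediate early class (chr1:134002908-134006858), varied least among the 4. It was at 23.3, 27.4, 23.7 and 23.4 FPKM, against 4.89 to 15.6 FPKM (median 9.002) in the 12, a log2 difference of 1.50. The 4 mice were close to each other here although their Fos ran from 11.7 to 41.5 FPKM.

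Csrnp1 (chr9:119800229-119813509), a nuclear protein first described as induced by Axin, was at 4.12, 8.41, 4.54 and 5.32 FPKM against 0.61 to 3.93 FPKM, a log2 difference of 1.74. Ier5 (chr1:154972107-154975382), an immediate early gene that acts on Hsf1, was at 5.37, 8.30, 6.16 and 7.69 FPKM against 2.86 to 5.33 FPKM, a difference of 0.96. In both genes ADV mouse 25 had the highest value, and the lowest of the 4 lay close to the highest of the 12.

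The other separated genes are not classed as immediate early genes on the lists used. Irs2 (chr8:11034681-11058458), an adaptor of the insulin receptor, was at 18.5, 25.1, 10.3 and 20.1 FPKM against 2.51 to 8.31 FPKM, a log2 difference of 1.93. Its mean in the other 12 ADV mice (4.96 ± 1.90 FPKM) was close to that in the LD mice (5.03 ± 1.72 FPKM). Apold1 (chr6:134958681-134963799), an endothelial gene known to respond quickly to stress, was at 2.31, 1.88, 1.76 and 1.45 FPKM against 0.154 to 1.34 FPKM. Lrrc32, which presents latent TGF-beta on the cell surface, was at 2.67, 2.85, 2.28 and 2.33 FPKM against 1.02 to 1.82 FPKM, and Bcl2l11, the proapoptotic BH3 protein Bim, was at 2.48, 2.11, 2.00 and 2.39 FPKM against 0.923 to 1.84 FPKM. Their log2 differences were 0.88 and 0.62. Gm17024, a predicted gene outside the rule for named genes, is given because it is 1 of the 10 (4.21, 2.50, 3.25 and 5.51 FPKM against 0.69 to 2.19 FPKM). Endothelial markers did not move with Apold1: 4 of 8 were higher and 4 lower in the 4 mice, with a median difference of -0.01, and their summed level was 88.8 to 105.4 FPKM in the 4 and 84.5 to 110.2 FPKM in the 12.

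**Figure D2:**
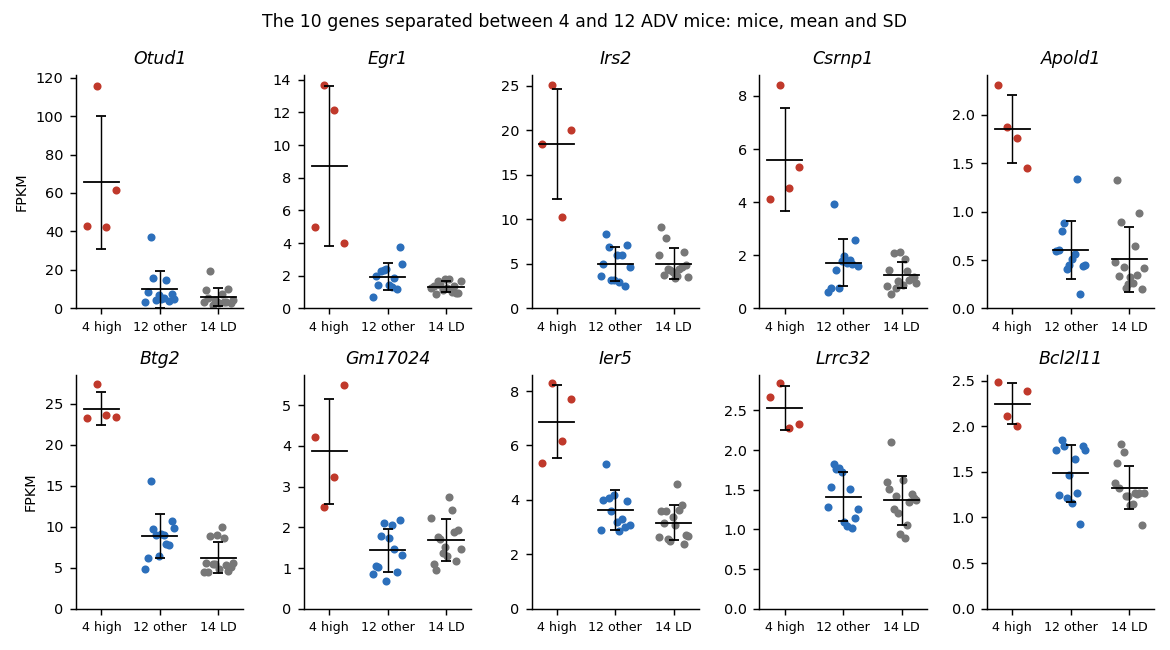
Levels (FPKM) of the 10 separated genes in the 4 ADV mice with the highest Fos (red), the other 12 ADV mice (blue) and the 14 LD mice (grey). Each point is a mouse, and the bars are the mean and SD. In each panel the lowest red point lies above the highest blue point (for Otud1, 42.2 against 37.2 FPKM).

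Atf3, a stress-induced partner of AP-1, and Nr4a3, an orphan nuclear receptor known for its response to exercise, had differences as large as Egr1 but overlapped between the groups. Atf3 was at 44.8, 123.6, 50.3 and 69.6 FPKM in the 4 mice and 2.77 to 52.3 FPKM (median 13.4) in the 12, a log2 difference of 2.26. ADV mouse 24 (52.3 FPKM) alone of the 12 lay inside the range of the 4. Nr4a3 was at 8.76, 14.4, 3.05 and 12.6 FPKM against 0.221 to 5.11 FPKM (log2 difference 2.26). Nr4a1 was at 79.2, 89.1, 34.6 and 55.6 FPKM against 15.1 to 39.0 FPKM (1.41). ADV mouse 29, which had the highest Fos of all, was the lowest of the 4 in both Nr4a genes.

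The AP-1 list moved unevenly. Of the 9 genes listed for AP-1 beside Fos, 5 passed the filter on low values (Fosb, Fosl1, Batf and Batf3 did not), 4 were higher in the 4 mice, and Atf3 was the only one to exceed 1.5-fold. Jun, the main partner of Fos, was at 33.3, 36.4, 35.3 and 30.0 FPKM against 22.3 to 33.2 FPKM (0.31), and Jund differed by 0.31 and Fosl2 by 0.30. Junb, which is usually induced together with Fos, was at 4.68, 3.66, 4.20 and 3.401 FPKM in the 4 and 2.41 to 6.998 FPKM in the 12, a difference of -0.08. Among Egr and Nr4a genes and their regulators, 6 of 10 were tested (Egr2, Egr3, Egr4 and Nr4a2 were too low), 3 exceeded 1.5-fold, and Srf, which encodes serum response factor itself, differed by 0.04.

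Of the other immediate early genes, 31 of 32 were tested, 26 were higher in the 4 mice, 16 exceeded 1.5-fold (none fell by that much), and 3 were separated. Their median log2 difference was 0.60. Ccn1, a matricellular protein, was at 22.8, 73.0, 53.7 and 34.999 FPKM against 10.03 to 33.5 FPKM (1.37). Trib1, a pseudokinase, was at 8.02, 10.997, 7.43 and 8.80 FPKM against 2.15 to 9.46 FPKM (1.14), and Klf4, a zinc finger factor, at 17.3, 20.3, 11.9 and 14.4 FPKM against 3.64 to 13.4 FPKM (1.12). Klf10 and Zfp36l1 differed by 0.00 and 0.01, and Ier2 by 0.44. Without ADV mouse 25, the number past 1.5-fold in this list was 10, and without each of the others it was 14 to 16.

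**Figure D3:**
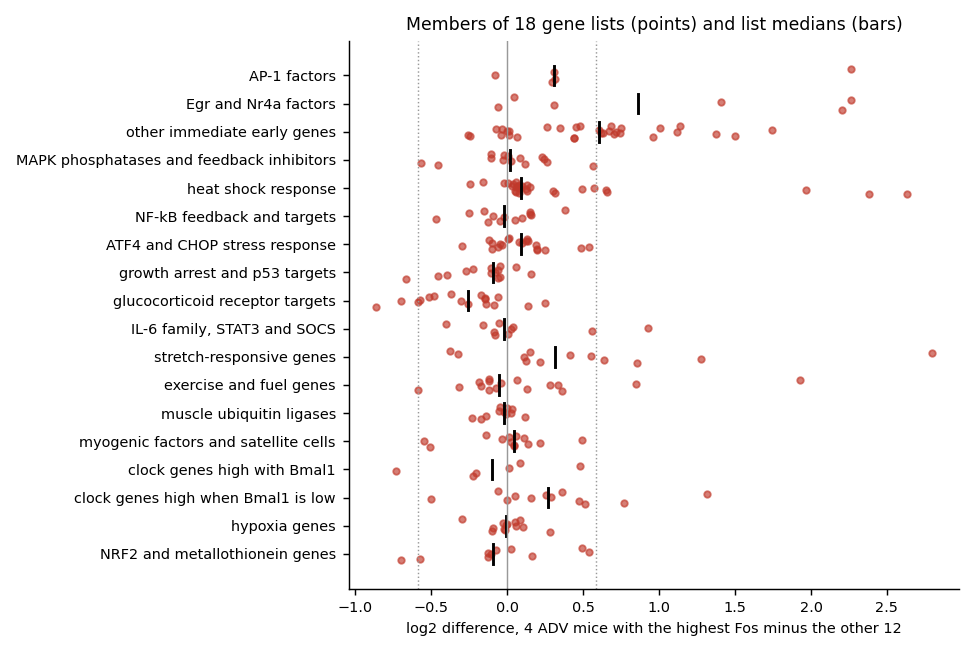
Log2 difference between the 4 ADV mice with the highest Fos and the other 12, for the tested members of 18 gene lists. Points are genes, black bars are list medians, and dotted lines mark 1.5-fold. The medians run from -0.26 (glucocorticoid receptor targets) to 0.86 (Egr and Nr4a factors), and that of the other immediate early genes is 0.60.

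Feedback inhibitors of the MAP kinase pathway, which many of the same stimuli induce, stayed near the median of all genes. Of 14 tested, 8 were higher, none passed 1.5-fold, and the median was 0.02. Dusp1, a phosphatase of p38 and JNK, was at 35.6, 43.1, 36.9 and 39.7 FPKM in the 4 and 18.3 to 54.4 FPKM in the 12, a difference of 0.57. Dusp7 differed by -0.57 and Dusp4 by -0.46.

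Heat shock genes differed unevenly. Of 28 heat shock genes tested, 25 were higher, but only 5 by more than 1.5-fold, and the median difference was 0.09. Hspa1b, an inducible HSP70 (chr17:35175412-35178214), was at 7.81, 48.8, 8.46 and 22.4 FPKM in ADV mice 21, 25, 29 and 33 and at 1.09 to 9.11 FPKM in the 12, a difference of 2.63. Its neighbour Hspa1a (chr17:35188166-35191132) was at 9.57, 45.5, 10.1 and 23.1 FPKM against 1.39 to 10.5 FPKM (2.38). Both genes were high in mice 25 and 33 and just within the upper range of the 12 in mice 21 and 29. Dnajb1, the HSP40 partner of HSP70, was at 4.98, 22.1, 6.44 and 5.68 FPKM against 1.68 to 5.09 FPKM (1.97), and here ADV mouse 25 was far above the others. Hspb1, a small heat shock protein, differed by 0.66, Dnaja1 by 0.65, Hspb8 by 0.05, the mitochondrial chaperonin Hspd1 by 0.03 and Hsf1, the factor that drives this response, which was named after its value was seen, by 0.01.

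Genes listed as responsive to mechanical load in muscle showed the same mixture. Of 12 tested, 10 were higher, 4 by more than 1.5-fold, and the median difference was 0.32. Otud1 is 1 of the 4 past 1.5-fold, and the list was chosen with earlier results of these data known. Xirp1, an actin-binding protein of the intercalated disc and myotendinous junction, was at 147.8, 403.2, 254.7 and 275.5 FPKM against 39.1 to 195.7 FPKM (1.28). Ankrd1, a titin-binding ankyrin repeat protein, was at 13.3, 22.9, 15.6 and 20.1 FPKM against 5.04 to 18.9 FPKM (0.85), and Csrp3, muscle LIM protein, at 283.2, 432.7, 278.2 and 277.2 FPKM against 85.4 to 406.2 FPKM (0.64). The related Ankrd23 and Xirp2 differed by 0.13 and 0.11.

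The 4 mice were not alike in the size of the difference. Over the 90 genes more than 1.5-fold higher in the 4, ADV mouse 25 had the highest FPKM of the 4 in 63 genes, ADV mouse 33 in 15, ADV mouse 21 in 10 and ADV mouse 29 in 2. The order of Fos was a different one, with ADV mouse 29 first, and that mouse was the lowest of the 4 in 46 of the 90 genes. Among the other 12 mice, ADV mouse 24 was the highest in 52 of the 90 genes, although its Fos (4.12 FPKM) ranked 8 among the 16. That mouse also had the highest Myh7, the slow myosin, of all 30 (233.3 FPKM). The 90 genes were chosen by a difference that includes these values, which favours whichever of the 4 has large ones. The same counts over all genes were not made, so these counts describe the 90 genes only. With fewer mice to separate, more genes met the criterion. Without ADV mouse 21 there were 21 upward and 4 downward, and without mouse 25 there were 13 upward and 1 downward. Without mouse 29 there were 26 upward and 4 downward, and without mouse 33 there were 13 upward and 2 downward. The first 10 genes were all among them each time, except that Bcl2l11 was lost without mouse 21.

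**Figure D4:**
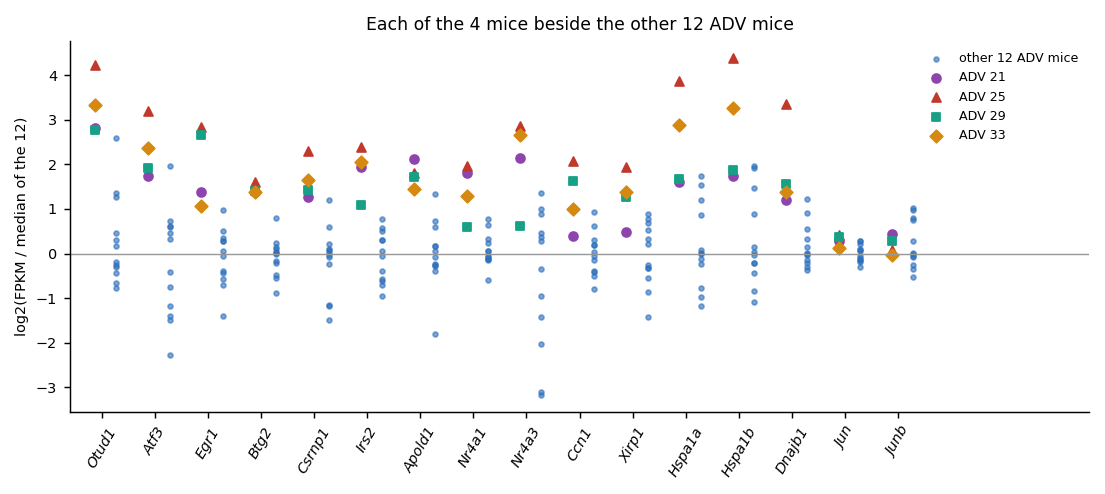
Level of 16 genes in each of the 4 ADV mice with the highest Fos (coloured symbols) and the other 12 (small blue points), as log2 of the FPKM over the median of the 12. The red triangles of ADV mouse 25 are the highest for most genes, and the green squares of ADV mouse 29 are low for Nr4a1, Nr4a3 and Irs2. For Jun and Junb the symbols lie among the blue points or just above them.

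Several other programmes had medians near that of all genes, though most growth arrest and p53 genes were lower. Of the NF-kB feedback genes and targets, 6 of the 13 tested were higher and 7 lower, with none past 1.5-fold and a median of -0.02. Tnfrsf12a, the Fn14 receptor, was at 38.3, 102.3, 79.4 and 55.7 FPKM in the 4 and 19.6 to 91.5 FPKM in the 12 (0.38). Of the ATF4 and CHOP genes, 13 of 20 were higher, none past 1.5-fold (median 0.09), with Ppp1r15a, the stress-induced eIF2α phosphatase subunit, at 0.54. Of 14 growth arrest and p53 genes, 12 were lower in the 4, with a median of -0.09 and 1 gene past 1.5-fold. That gene was the cell cycle inhibitor Cdkn1a, at 6.55, 20.9, 18.3 and 10.3 FPKM against 6.38 to 63.0 FPKM (-0.67). Of the 11 muscle ubiquitin ligases, 8 were lower and none passed 1.5-fold, and Trim63 (MuRF1) differed by -0.24 and Fbxo32 (atrogin-1) by -0.17.

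Glucocorticoid receptor targets lay lower, with 15 of 17 lower in the 4 mice, 3 of them by more than 1.5-fold, and a median of -0.26. The number past 1.5-fold was 1 without ADV mouse 21, 5 without mouse 25 and 5 without mouse 33, and the median stayed below 0 (-0.20 to -0.39). In the LD mice the list went the other way, with 14 of 17 slopes on Fos above 0 and a median slope of 0.14. Without LD mouse 23, 7 of 17 were above 0 (median -0.03). Fkbp5, a chaperone gene that glucocorticoids induce strongly, was at 7.89, 16.9, 12.2 and 7.39 FPKM against 9.33 to 50.1 FPKM (-0.86), and Mt1, a metallothionein, at 12.99, 26.1, 19.3 and 16.6 FPKM against 13.4 to 81.8 FPKM (-0.70). Both ranges overlapped. Among NRF2 and metallothionein genes 4 of 10 were higher (median -0.09).

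Fuel and signalling lists were mixed. Of 16 exercise and fuel genes, 7 were higher, 2 by more than 1.5-fold (Irs2 and the calcineurin inhibitor Rcan1, 0.84), while Pdk4, which limits glucose oxidation, differed by -0.59. Of 10 tested genes of the IL-6, STAT3 and SOCS group, 5 were higher, and without ADV mouse 33 none was. Cish, a cytokine-induced inhibitor, was at 3.57, 2.75, 3.47 and 28.001 FPKM against 0.769 to 15.3 FPKM (median 3.82), so its difference of 0.93 came from mouse 33 and was -0.56 without it. Of 13 hypoxia genes 5 were higher (median -0.01), and 9 without ADV mouse 21 (median 0.05).

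Myogenic factors overlapped between the groups. Myod1, the master regulator of the myogenic lineage, was at 6.42, 7.86, 12.9 and 7.48 FPKM against 5.50 to 21.3 FPKM (-0.51), and Myog was at 1.77, 2.74, 3.73 and 2.42 FPKM against 1.31 to 4.90 FPKM (0.04). Of the 13 genes tested in that list, 9 were higher and 4 lower.

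Clock genes differed widely among the 4. Of the 12 listed genes high when Bmal1 is low, 9 were higher in the 4 mice, 2 past 1.5-fold. Their median was 0.27, and 0.07 without ADV mouse 21. Of the 6 genes high with Bmal1, 3 were higher (median -0.10). In the LD mice the median slopes of these lists on Fos were -0.12 and 0.08. Bmal1, the activator of the clock, was at 6.75, 14.6, 20.98 and 13.8 FPKM in mice 21, 25, 29 and 33, against 11.2 to 21.6 FPKM in the 12 (-0.22). Dbp, a clock output gene that peaks when Bmal1 is low, was at 17.8, 8.20, 5.33 and 8.00 FPKM against 3.98 to 13.7 FPKM (0.28). Ciart, a clock repressor, was at 1.82, 4.91, 0.755 and 1.28 FPKM against 0.298 to 2.38 FPKM (1.32). Per2, which is both a clock gene and open to immediate early induction, was at 3.77, 3.56, 2.36 and 3.99 FPKM against 0.982 to 4.05 FPKM (0.77). ADV mouse 21 had the lowest Bmal1 and the highest Dbp of all 16 ADV mice.

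The largest falls overlapped between the groups and were named after their values were seen. Cxcl13, a chemokine that attracts B cells, was at 0.162, 0.166, 0.219 and 0.504 FPKM against 0.218 to 2.09 FPKM (-1.82), and Ccl8, a chemokine of macrophages, at 1.597, 0.263, 0.63 and 0.691 FPKM against 1.05 to 5.85 FPKM (-1.66). Leukocyte markers moved the same way. All 7 of the 7 tested (11 listed) were lower in the 4, by a median of -0.29 and none past 1.5-fold, and the summed level was 91.6 to 133.1 FPKM in the 4 and 101.8 to 177.9 FPKM in the 12. Their part in these falls was not tested, and fewer cells of a type and less RNA per cell cannot be told apart in whole muscle. Smooth muscle markers were higher in 6 of 6 (median 0.21, sum 114.7 to 126.8 against 89.6 to 143.9 FPKM) and slow-fiber markers in 8 of 8 (median 0.22, sum 776.0 to 1096 against 329.3 to 2264 FPKM). Medians were 0.03 for fast fibers, -0.04 for adipocytes, 0.06 for Schwann cells and erythrocytes, -0.10 for fibroblasts and 0.00 for mitochondrial transcripts. Single mice turned some of them: the adipocyte median was 0.24 without ADV mouse 29 and -0.45 without mouse 33, and the Schwann cell median 0.28 without mouse 29 and -0.16 without mouse 25. The part of these markers in the results was not tested.

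Beside the LD mice, the difference between the ADV and LD groups was recomputed without the 4 mice. Atf3 was higher by 2.43 on the log2 scale in all 16 ADV mice than in the LD mice, and by 1.46 in the other 12. The same values were 2.67 and 1.47 for Hspa1b, 2.03 and 0.71 for Otud1, 1.45 and 0.53 for Egr1 and 1.02 and 0.48 for Btg2. For Irs2 the difference from the LD mice was 0.72 with all 16 and -0.05 with the other 12. Nr4a1 went from 0.02 to -0.48. By contrast Myod1 was 0.73 with all 16 and 0.84 with the 12, and Tnfrsf12a 1.24 and 1.13. These are descriptions, since leaving out mice by a measured gene lowers the genes that vary with it.

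In the LD mice, which the choice did not use, Fos ranged from 0.66 to 4.57 FPKM. For each gene the slope of log2 level on log2 Fos, both from TMM-normalized counts, was tested with edgeR, and a slope of 1 means that a gene changes by the same fold as Fos. With the Benjamini-Hochberg adjustment over all 12029 genes, 0 genes (0%) had an FDR under 0.05 by edgeR, the lowest FDR being 0.457. At an unadjusted p under 0.05 there were 594 rising genes (4.94%) and 480 falling genes (3.99%), 1074 in all. DESeq2 called 19 genes, 15 rising and 4 falling. They include Nr4a1, Dusp1 and the HSP40 genes Dnaja4 and Dnajb4, both named after their values were seen, and not Egr1, Otud1, Atf3 or Hspa1b.

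The slope was positive for 9 of the 10 genes separated in the ADV mice, with none past the adjusted threshold. It was 0.68 ± 0.24 (SE) for Otud1 (unadjusted p = 0.0115, edgeR FDR 0.523), 0.53 ± 0.15 for Csrnp1 (p = 0.00299, FDR 0.457), 0.38 ± 0.12 for Irs2 (p = 0.00587, FDR 0.497) and 0.30 ± 0.10 for Egr1 (p = 0.0111, FDR 0.523). For Lrrc32 it was -0.21 ± 0.10 (p = 0.0459, FDR 0.549). Among genes that overlapped in the ADV mice, it was 0.92 ± 0.27 for Atf3 (p = 0.00385, FDR 0.458), 0.36 ± 0.08 for Nr4a1 (p = 3.78e-04, FDR 0.457) and 0.61 ± 0.23 for Hspa1b (p = 0.0168, FDR 0.523). Dnajb1 had a slope of 0.00 ± 0.13. In the ADV mice its difference was 1.14 without mouse 25.

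Among the 31 other immediate early genes, 11 rose with Fos at an unadjusted p under 0.05 and none fell, against 4.94% of all genes. Of the Egr and Nr4a genes 4 of 6 did, of the stretch-responsive genes 7 of 12 (Otud1 among them), and of the heat shock genes 6 of 28, with 1 falling. Of the 13 myogenic genes 1 rose in this way, and of the 13 NF-kB genes 1 rose and 1 fell. The counts moved in both directions without LD mouse 23, which had the lowest Fos (0.66 FPKM), while the share of all genes fell to 2.72%. Rising genes were then 6 of the 31 immediate early genes, 2 of the 6 Egr and Nr4a genes and 5 of the 12 stretch-responsive genes, but 7 of the 28 heat shock genes, 2 of the 5 AP-1 genes and 4 of the 14 MAP kinase inhibitors (1 and 1 with all mice). Of the 31 immediate early genes 1 then fell. With LD mice 23 and 31 both left out, 5 of the 31 rose and 1 fell, while 4.30% of all genes rose.

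With the remainder of the label number as a block, an alternative added after the 4 ADV mice were seen to share a remainder, several slopes were smaller. That of Otud1 was 0.41 (unadjusted p = 0.115), of Irs2 0.23 (p = 0.117), of Hspa1b 0.32 (p = 0.225) and of Apold1 0.23 (p = 0.375), while those of Csrnp1 (0.55), Egr1 (0.33), Atf3 (0.85) and Nr4a1 (0.32) changed little.

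All 8 slow-fiber markers also rose with Fos in the LD mice at an unadjusted p under 0.05, with a median slope of 1.03. LD mouse 23 had both the lowest Fos and the lowest Myh7 at 3.88 FPKM against 45.7 ± 31.1 FPKM over the 14 mice, and without it 1 of 8 did (median slope 0.64). In the ADV mice the same 8 markers differed by a median of 0.22 between the 4 and the 12. No slow-fiber marker passed the adjusted threshold, so their rise with Fos in the LD mice rests on unadjusted p and depended in part on LD mouse 23. The part of these markers in the other slopes was not tested.

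**Figure D5:**
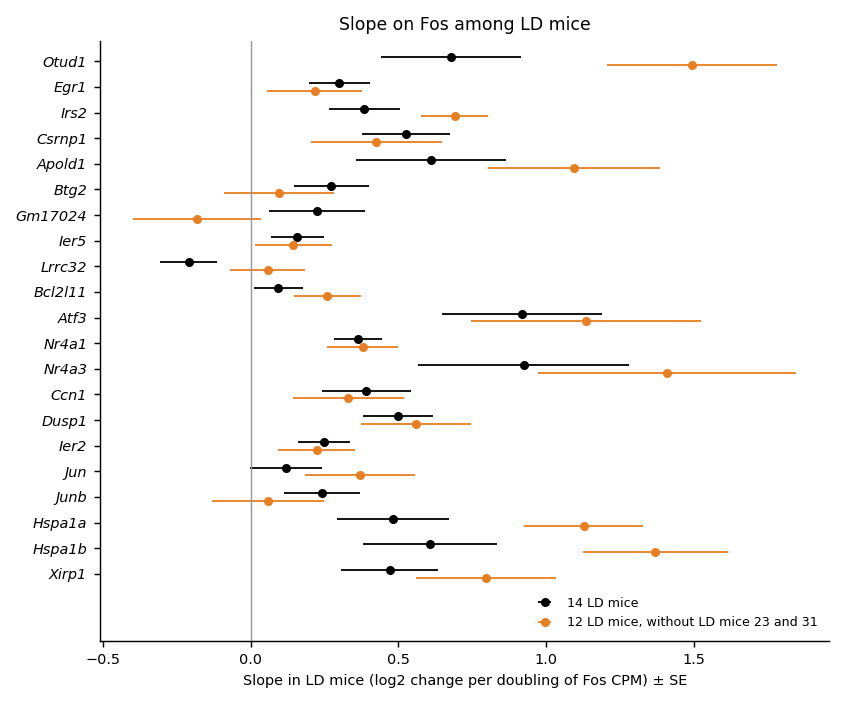
Slope on Fos among the LD mice (log2 change for each doubling of Fos, with its SE) for the 10 separated genes and other genes described in the text. Black points are all 14 LD mice, and orange points the 12 left when the mice with the lowest and highest Fos (0.66 and 4.57 FPKM) are removed. Otud1, Hspa1a and Hspa1b have larger slopes without those mice, and Btg2 and Lrrc32 lie nearer 0.

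Correlations of Fos with 8 genes were computed over the same 14 LD mice (log2 of normalized counts, two-sided permutation tests with 100000 permutations, adjusted over the 8). Dusp1 had Pearson r = 0.72 (p = 0.00283, adjusted 0.0226) and Spearman rho = 0.78 (p = 0.00146, adjusted 0.0117). Atf3 had r = 0.64 (p = 0.0133, adjusted 0.0357) and rho = 0.59 (p = 0.0299, adjusted 0.120), Egr1 r = 0.62 (p = 0.0162, adjusted 0.0357) and rho = 0.55 (p = 0.0471, adjusted 0.121), and Ier2 r = 0.62 (p = 0.0179, adjusted 0.0357) and rho = 0.51 (p = 0.0634, adjusted 0.121). For Hspa1b, Btg2, Junb and Jun, r was 0.51, 0.47, 0.42 and 0.28, with adjusted permutation p of 0.0951, 0.123, 0.154 and 0.328, and rho was 0.47, 0.48, 0.27 and 0.43, with adjusted p of 0.121, 0.121, 0.350 and 0.140. Without the 2 LD mice farthest from the median Fos (23 and 31), r was 0.65 for Dusp1, 0.62 for Atf3, 0.36 for Egr1 and 0.49 for Ier2, with adjusted permutation p of 0.0838, 0.0865, 0.331 and 0.162 and unadjusted p of 0.0210, 0.0324, 0.248 and 0.101. None of the 4 passed the adjusted threshold with 12 mice, although r of Dusp1 and Atf3 changed little. For Hspa1b r rose to 0.82 (adjusted permutation p = 0.0106), and for Junb it fell to 0.06.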

How the data were processed

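Gastrocnemius RNA from 30 mice (16 ADV, 14 LD; 1 library per mouse) was sequenced as stranded poly(A) libraries. Per the labels and the study's methods, the authors aligned reads with STAR 2.7.10a to GRCm39 and counted them over exons with HOMER 4.11. The deposited count table holds estimated counts, of which 14.8% are not whole, and these were rounded here. The deposited FPKM table holds the same values scaled to gene length and library size. FPKM was used to rank the ADV mice by Fos and to print levels, and estimated counts for all differences and slopes.

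The members and gene lists were chosen with earlier results of these data known. Genes needed a mean of at least 20 reads and 0.5 FPKM over all mice, which left 12029 without Fos. Differences between the 4 and the other 12 ADV mice came from edgeR 4.0.16 (TMM, quasi-likelihood fit) without p-values. A gene was called separated when normalized counts did not overlap and the fold exceeded 1.5. Slopes on Fos in LD mice were tested with edgeR's quasi-likelihood test with Benjamini-Hochberg adjustment, and DESeq2 1.42.0 and limma 3.58.1 were alternatives. The LD slope test was also run on simulated counts for 12029 genes, 200 of them with a true log2 slope of 1. It called 213 genes and found 200 of the 200. The separation of 4 from 12 mice, also run on simulated counts, found 198 of 200 at a true log2 difference of 2. Recovery of smaller changes was not tested. In the ADV mice, the measured differences of Otud1 (2.79) and Egr1 (2.21) were separated. Those of Hspa1b (2.63), Hspa1a (2.38), Atf3 (2.26) and Nr4a3 (2.26) were not. In the LD mice, the measured slopes of Atf3 (0.92, edgeR FDR 0.458) and Myh7 (1.13, edgeR FDR 0.534) were not called. No 2 libraries of a group were alike within sampling noise (chi-square per gene at least 12.7). P-values measure the spread between mice.

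Named genes were, per list, up to 5 with the largest absolute difference and up to 2 abundant ones with the smallest, the 12 highest and 10 lowest separated genes other than predicted genes, called LD genes, all clock genes, the 8 genes of the correlation, and Fos, Myod1, Myog, Tnfrsf12a and Tnfsf12. Other names are given as chosen after their values were seen. Depth ranged from 18875468 to 28512674 exonic read pairs. Promoters were read from GRCm39 with GENCODE vM39. Alternatives covered normalization, filters, unit, ranking, fold limit, GC content, covariates and left-out mice.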

Additional observations from a re-analysis of the deposited data

Results flagged for a closer look

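Within the 4 ADV mice with the highest Fos, 192 named genes were examined for a mouse far from the other 3, meaning that its gap to the nearest of them exceeded 0.829 of the range of the 4. This happened for 11 genes, and chance gives about 1 in 20 such gaps, so the count lies near the share that chance gives. The genes below are given as a description. ADV mouse 25 was the distant one for 7 genes. It was high for Dnajb1 (22.066 FPKM), Btg2 (27.404 FPKM) and Csrp3 (432.672 FPKM), which belong to the heat shock, immediate early and stretch lists. It also stood apart for Ddit4 (31.545 FPKM), the fast troponins Tnnc2 (12037.878 FPKM) and Tnnt3 (23844.803 FPKM), and the ubiquitin ligase gene Fbxo30 (1.865 FPKM). ADV mouse 33 was distant for the cytokine-induced inhibitors Cish (28.001 FPKM) and Socs2 (6.465 FPKM) and for the endothelial receptor Tie1 (8.371 FPKM), and ADV mouse 21 for the antioxidant gene Srxn1 (16.878 FPKM).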

How the results depend on the processing

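Of 10 genes separated upward (0 downward), 17 and 4 were found with a mean over 5 reads and no FPKM limit, and 90 and 70 when overlap was allowed, an alternative chosen after seeing the data. With the 5 highest against 11 there were 6 upward, of which 2 were among the 10. With the 3 highest against 13 there were 7 upward, 4 of them among the 10, and 2 downward. Leaving out each of the 4 mice gave 13 to 26 upward and 1 to 4 downward. The other upward counts were 7 to 13. Of 3421 log2 differences of named genes under alternatives, 6 moved by more than 1 SD between mice, and 172 in 69 genes had the opposite sign. Only Cish did so among those past 1.5-fold, at -0.56 without ADV mouse 33 and -0.9984 with the 3 highest. In the LD mice 0 genes were called by edgeR and limma, and 19 by DESeq2, where Dusp1 passed (slope 0.50). Without LD mouse 23, 327 genes rose and 293 fell at an unadjusted p under 0.05, against 594 and 480. Without the 2 LD mice farthest from the median Fos, the slopes of Gm17024 (-0.18) and Lrrc32 (0.0575) reversed, and the correlations of Egr1 (0.36), Atf3 (0.62), Ier2 (0.49) and Dusp1 (0.65) no longer passed, while that of Hspa1b (0.82) did. The cause was not tested. No paired analysis was possible because each comparison lies within 1 group, where each label number occurs once. A block on the remainder of the label number, added after seeing the data, also called 0 genes in the LD mice, but lowered the slopes of Otud1 (0.41), Irs2 (0.23), Hspa1b (0.32) and Apold1 (0.23) by over 1.5 times. Genes at a few reads, such as Cxcl13, carry more counting error than Fos or Otud1.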
